A study of Mus musculus with 7 samples.

Results

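The genes described here are those named Fox, Sox, Tbx and Klf, 4 families of DNA-binding transcription factors, in Pdgfra-low CD81+ cells sorted from the mouse intestinal mesenchyme. Members were taken by gene symbol alone, as a family name with its usual letter or number, leaving out Foxf1, Foxf2, Foxl1 and Sox6. The rule found 89 of 24908 symbols: 41 Fox, 18 Sox, 13 Tbx and 17 Klf genes. Poly-A RNA was sequenced in 7 libraries, which are 3 wildtype controls, 2 libraries taken 4 days after Apc was inactivated in the epithelium and 2 taken 6 days after. The knockout mice carried Apcflox/flox alleles and the Villin-CreERT2 driver, which is active in intestinal epithelial cells, so the sorted cells were not themselves the target of the deletion. The Apc level of these cells therefore does not check the labels. The column names also carry a low GFP gate, with no reporter allele named in the labels. The controls are described only as wildtype, and the labels used here give no age, tamoxifen dose or number of animals per library.

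Fox proteins bind DNA through the forkhead domain, Sox proteins through an HMG box that bends the helix, Tbx proteins through the T-box, and Klf proteins through zinc fingers that read GC-rich and CACCC sequences. Related members of a family often bind the same sites, so a cell's repertoire depends on which members it holds and at what level. In connective tissue several of them set positional identity, others respond to hormones, growth factors or mechanical force within minutes to hours, and the FoxO proteins are held out of the nucleus by insulin and AKT signalling.

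Sort and trophocyte markers were present in all 7 libraries, but not at a steady level. Pdgfra ranged from 54.3 to 134 FPKM and Cd81 from 32.4 FPKM in day 4 knockout replicate 2 to 169 FPKM. Grem1, a secreted BMP antagonist of trophocytes, ranged from 101 to 501 FPKM. Cd34 was at 454 to 509 FPKM in controls, 220 and 170 FPKM at day 4 and 298 and 353 FPKM at day 6. Wnt2b was at 22.4 to 38.2 FPKM in controls, 10.5 and 11.3 FPKM at day 4 and 16.1 and 19.2 FPKM at day 6. Both genes lay below all controls on both days. Pdgfra, at 76.5 and 134 FPKM at day 4 and 111 and 89.2 FPKM at day 6, lay above all controls on both days. FPKM are fragment numbers divided by transcript length and by library size, so levels of different genes can be compared. The column names place the day 4 knockouts with 1 control in a day 4 harvest set, and the other 2 controls with a day 6 knockout in a day 6 set. The second day 6 knockout column carries no day and was placed in that set by elimination. Day 4 knockout replicate 2 stood apart in its other cell types, with a summed level of 14 macrophage and dendritic cell markers of 44.0 FPKM against 429 to 1037 FPKM in the other 6 libraries. Day 4 knockout replicate 1 stood apart in B and plasma cell markers, which summed to 3047 FPKM against 315 to 791 FPKM in the others. The part of these cells in the day 4 values was not tested. Below, controls are always given in the order day 4 set control, first and second day 6 set control, and knockouts in the order replicate 1, replicate 2.

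Klf genes made up most of the summed level of the 89 members. They held 74.3% to 77.2% of it in every library, Fox genes 13.3% to 15.1%, Sox genes 5.21% to 6.87% and Tbx genes 2.48% to 5.47%. Foxf1, left out by the rule, was at 119 to 218 FPKM, where the 41 Fox members summed to 114 to 154 FPKM. The shares therefore hold for the 89 members only and depend on that rule. These shares came from few genes. Of the 89 members, 37 reached 1 FPKM in at least 2 libraries and were tested, and the other 52 stayed under 1 FPKM in all 7. By family, 12 of 17 Klf, 13 of 41 Fox, 9 of 18 Sox and 3 of 13 Tbx genes were tested. A mean of at least 10 FPKM in controls was reached by 16 members, 10 of them Klf genes.

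**Figure D1:**
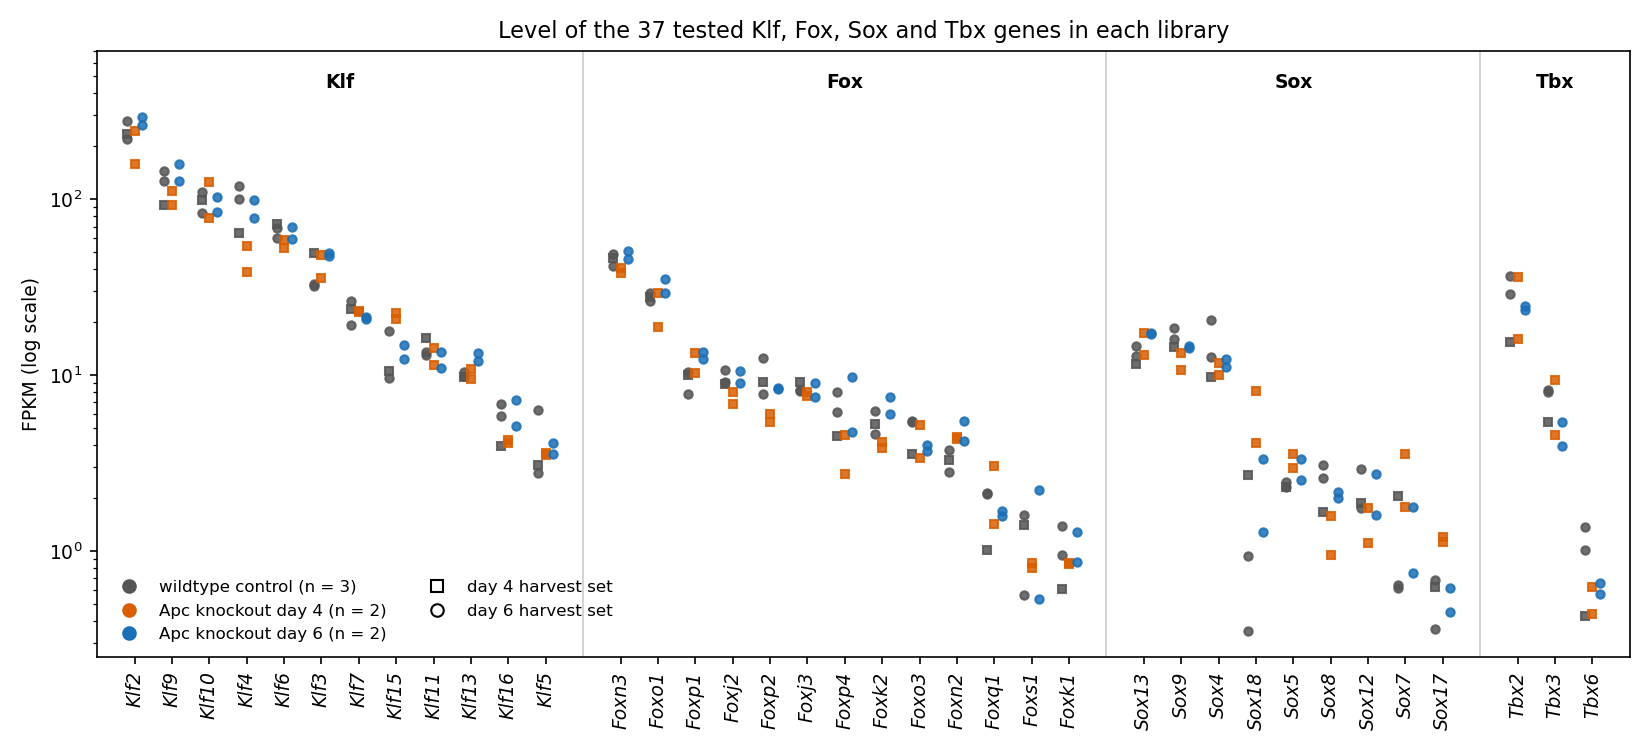
FPKM on a log scale for each of the 37 tested members in each library, grouped by family and ordered by mean level. Colours are wildtype controls, day 4 and day 6 knockouts, squares are the day 4 harvest set and circles the day 6 set. Klf2 is the highest member in every library, and for most genes the 3 colours overlap.

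Promoter sequences from RefSeq, build GRCm38.p6, were matched for 61 of the 89 members. The submitters' processing notes name mm9, so these positions were not joined to any position of the study. Shown are the 150 bases before the most upstream annotated start of 3 members whose window holds no annotated exon. The hormone-regulated Klf9 and Klf4 are among the most abundant members, and the metabolic regulator Klf15 was added by hand. Capitals mark matches, on either strand, to GGGCGG (the GC box), CCACCC (read by Klf proteins), CCAAT (the binding site of NF-Y), TATAAA (the core promoter element of TBP) or GTAAACA (a forkhead site).
Klf9, chr19:23141076-23141225, plus strand: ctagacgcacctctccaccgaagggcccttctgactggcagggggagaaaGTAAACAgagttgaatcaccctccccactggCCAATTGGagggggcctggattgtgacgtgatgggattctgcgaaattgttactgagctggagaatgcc
Klf4, chr4:55532476-55532625, minus strand: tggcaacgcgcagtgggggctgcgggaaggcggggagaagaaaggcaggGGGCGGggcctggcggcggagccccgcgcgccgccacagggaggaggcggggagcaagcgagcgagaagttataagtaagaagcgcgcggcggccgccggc
Klf15, chr6:90462426-90462575, plus strand: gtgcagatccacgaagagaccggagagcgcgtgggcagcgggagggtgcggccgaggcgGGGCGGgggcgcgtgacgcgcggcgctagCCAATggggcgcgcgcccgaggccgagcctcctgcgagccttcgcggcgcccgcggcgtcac

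The Klf9 window holds 1 forkhead match and a CCAATTGG in which a CCAAT on each strand overlap, and no GC box. Those of Klf4 and Klf15 hold 1 GC box each, and Klf15 also has 1 CCAAT. None of the 3 windows has a CCACCC or a TATAAA. Over the full 250 bases before the start, GGGCGG was found in 17 of 23 matched promoters of tested members (73.9%), in 24 of 38 of members under 1 FPKM (63.2%) and in 33.0% of all 27025 promoters. CCACCC was found in 39.1% of the first, 36.8% of the second and 27.6% of all. GTAAACA was found in 2 of the 23, Klf9 and Sox12 (8.70%), in 1 of the 38 (2.63%) and in 3.06% of all. Promoters of tested members were the richest in GC, with a median of 71.2% against 58.8% for members under 1 FPKM and 52.0% for all promoters. These matches describe letters in a window and say nothing of binding.

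Klf2, a factor of quiescence and of the response to flow, was the most abundant member and stood at rank 219 of all symbols in controls. It was at 236, 221 and 278 FPKM in controls, 159 and 245 FPKM at day 4 and 265 and 296 FPKM at day 6. The groups overlapped, and both day 6 libraries lay above both day 4 libraries. Klf9, which is induced by glucocorticoid and thyroid hormone, was at 93.3, 145 and 126 FPKM in controls, 112 and 92.4 FPKM at day 4 and 158 and 127 FPKM at day 6. Its lowest 3 values were the 3 libraries of the day 4 set, control included.

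Klf10, a TGF-beta inducible repressor, was at 99.7, 109 and 83.7 FPKM in controls, 126 and 78.3 FPKM at day 4 and 84.2 and 103 FPKM at day 6. The day 4 knockouts were the highest and the lowest of the 7. Klf6, an early response gene of tissue injury, was between 53.0 and 72.4 FPKM, with day 4 knockouts at 53.0 and 58.8 FPKM just below the lowest control at 60.3 FPKM. Klf3, a repressor that recruits CtBP, was at 49.4, 33.0 and 32.0 FPKM in controls, 35.8 and 48.0 FPKM at day 4 and 49.3 and 47.7 FPKM at day 6. The day 4 set control was its highest value, so the groups overlapped. Of the 24 immediate early and dissociation genes that respond to handling, such as Fos and Egr1, 0 passed an adjusted p of 0.05 in any comparison by limma, and at day 4 an unadjusted p under 0.05 was reached by 2 that were higher and 4 that were lower, where 6.20% and 12.3% of all tested genes reached it. Their summed level was 25058 to 26015 FPKM in controls, from 24420 to 27134 FPKM at day 4 and from 25232 to 25651 FPKM at day 6, so the groups overlapped. The sum leans on Fos, Junb and Egr1, with control means of 3920, 4105 and 3819 FPKM, and says little of the rest. Fosb, Jund and Socs3 had all day 4 set libraries below all day 6 set libraries, where 9.65% of tested genes did. The other listed genes overlapped between the sets.

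Forkhead members were led by Foxn3, a cell cycle checkpoint and metabolic repressor, and by Foxo1. Foxn3 was at 46.7, 49.0 and 41.9 FPKM in controls, 38.2 and 40.7 FPKM at day 4 and 46.0 and 51.1 FPKM at day 6. Its day 4 knockouts lay just below all controls. Foxo1, the main FoxO effector of insulin withdrawal, was at 27.9, 29.3 and 26.4 FPKM in controls, 29.5 and 18.8 FPKM at day 4 and 35.4 and 29.3 FPKM at day 6. Only day 4 knockout replicate 2 was low. Foxo3 ranged from 3.36 to 5.51 FPKM, and Foxo4 and Foxo6 stayed at or under 0.688 FPKM.

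Expression is not the level at which FoxO proteins are mainly controlled, so 20 genes known as FoxO targets, Klf15 among them, were followed as well. Of the 17 that were tested, 0 passed in any comparison by limma. At day 4, 3 were higher and 3 lower at an unadjusted p under 0.05 by limma, where 6.20% of all tested genes were higher and 12.3% lower. Their median log2 change was 0.06, and that of all tested genes was -0.06. Pdk4, a mitochondrial kinase that shifts fuel use from glucose to fat, was singled out after its values were seen. It was at 8.53, 8.67 and 8.59 FPKM in controls, 42.8 and 20.9 FPKM at day 4 and 58.2 and 25.2 FPKM at day 6. All 4 knockouts lay above all controls, and averaging the days gave a log2 change of 1.86 ± 0.32 (SE), with an adjusted p of 0.0727 by limma.

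The Foxp genes, repressors that pair with each other, were all present except Foxp3, the regulator of regulatory T cells, which was at most 0.283 FPKM. Foxp1 was at 9.98, 10.5 and 7.81 FPKM in controls, 13.4 and 10.3 FPKM at day 4 and 13.6 and 12.3 FPKM at day 6. Foxp2 was at 9.18, 12.6 and 7.86 FPKM in controls, 6.05 and 5.42 FPKM at day 4 and 8.33 and 8.40 FPKM at day 6. So Foxp1 was above all controls in both day 6 libraries, and Foxp2 was below all controls in both day 4 libraries. Foxp4 ranged from 2.76 to 9.76 FPKM. Foxj2 (6.83 to 10.7 FPKM) and Foxj3 (7.54 to 9.19 FPKM), activators whose part in this tissue is little known, varied little. Foxj3 had the narrowest range of the 37 tested members, its highest value being 1.22 times its lowest.

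Sox genes came from 4 subgroups. Of the SoxE genes, Sox9, needed for cartilage, was at 14.4, 18.5 and 16.0 FPKM in controls, 13.4 and 10.8 FPKM at day 4 and 14.2 and 14.6 FPKM at day 6. Its relative Sox8 was at 1.67, 3.08 and 2.62 FPKM in controls, 1.59 and 0.944 FPKM at day 4 and 2.00 and 2.15 FPKM at day 6. In both genes the day 4 knockouts lay below all controls, with the day 4 set control the nearest. Sox10, the third SoxE gene and a glial factor, was at most 0.223 FPKM, and none of 10 glial markers was tested.

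Of the SoxD genes, which lack an activation domain, Sox13 was at 11.6, 12.9 and 14.7 FPKM in controls, 13.0 and 17.4 FPKM at day 4 and 17.5 and 17.2 FPKM at day 6. Sox5 was at 2.31, 2.31 and 2.47 FPKM in controls, 3.56 and 2.96 FPKM at day 4 and 2.55 and 3.33 FPKM at day 6. The controls of Sox5 lay close together and all 4 knockouts were above them. Sox6, the third SoxD gene and one of the 4 left out, was at most 0.0566 FPKM. Of the SoxC genes, Sox4, an effector of TGF-beta, was between 9.74 and 20.5 FPKM and Sox12 between 1.11 and 2.91 FPKM, while Sox11 was at most 0.0431 FPKM.

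The SoxF genes Sox18, Sox7 and Sox17 specify blood and lymphatic endothelium. Sox18 and Sox7 had the widest ranges, as highest over lowest value, of the 9 tested Sox genes, with lowest values under 1 FPKM. Sox18 was at 2.69, 0.351 and 0.933 FPKM in controls, 4.14 and 8.08 FPKM at day 4 and 1.28 and 3.32 FPKM at day 6. Sox7 was at 2.04, 0.617 and 0.644 FPKM in controls, 1.79 and 3.54 FPKM at day 4 and 0.745 and 1.79 FPKM at day 6. Both were higher in the day 4 set control than in the other 2 controls and highest in day 4 knockout replicate 2. Sox17 was at 0.621, 0.358 and 0.682 FPKM in controls, 1.12 and 1.19 FPKM at day 4 and 0.452 and 0.613 FPKM at day 6. It reached 1 FPKM only in the day 4 knockouts, so their place above all other libraries follows from the filter.

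The endothelial receptor genes Kdr and Flt1, chosen after their values were seen, were likewise higher in the day 4 set control than in the other 2 controls. Kdr, a VEGF receptor, was at 2.37, 0.454 and 0.655 FPKM in controls, 2.24 and 3.69 FPKM at day 4 and 0.622 and 2.09 FPKM at day 6. Flt1, another VEGF receptor, was at 1.00, 0.210 and 0.287 FPKM in controls, 2.07 and 3.44 FPKM at day 4 and 0.677 and 1.13 FPKM at day 6. Pecam1, Cdh5, Tie1, Esam, Egfl7, Emcn, Erg, Plvap, Prox1, Lyve1 and Flt4 also had their highest control value in the day 4 set control. Several of these were under 1 FPKM in all controls. Tek, Eng and Vwf did not have it there. Tek was at 9.54, 8.89 and 12.9 FPKM in controls, and was highest in day 6 knockout replicate 1 at 15.6 FPKM. Eng was at 19.7, 24.1 and 37.5 FPKM in controls, the last its highest value. Of 16 endothelial markers 11 were tested and 0 passed, and 5 of the 11 were higher at day 4 at an unadjusted p under 0.05 (limma), as were 6.20% of all tested genes. They include Lyve1, which met the filter through knockouts alone. Plvap and Eng held most of the summed level of the 16, which ran from 80.8 to 102 FPKM in controls. At day 4 the sums were 89.8 and 126 FPKM, and at day 6 they were 71.7 and 109 FPKM. The defining cadherin Cdh5 was at most 0.351 FPKM and the lymphatic factor Prox1 at most 0.203 FPKM. The part of endothelial cells in the SoxF values was not tested. In sorted pools such as these, fewer cells of a type and less RNA per cell cannot be told apart.

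**Figure D2:**
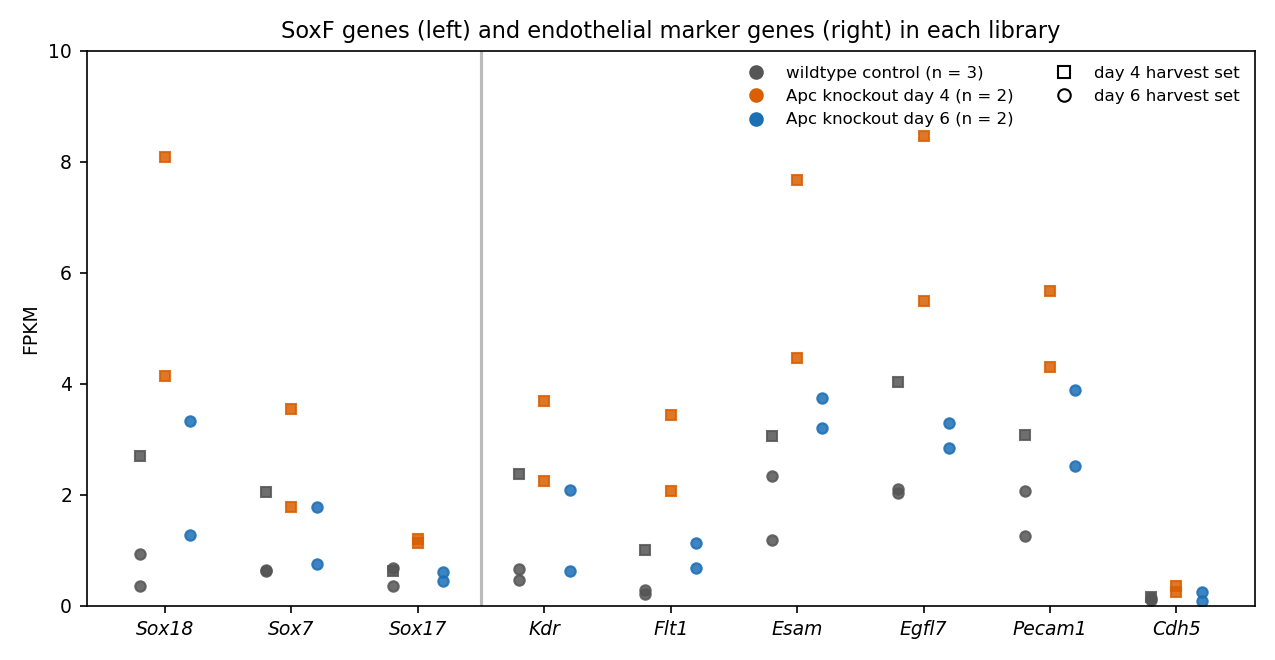
FPKM on a linear scale of the SoxF genes Sox18, Sox7 and Sox17 and of 6 endothelial markers in each library, with colours and shapes as in the plot of all tested members. The 6 markers were picked from the 16 listed. The day 4 set control lies above the other 2 controls for Sox18, Sox7 and all 6 markers shown. The listed markers for which it does not, Tek, Eng and Vwf, are not shown. Cdh5 stays at or under 0.351 FPKM.

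Among Tbx genes, 2 closely related repressors held nearly all of the family's level. Tbx2 was at 15.5, 28.8 and 36.8 FPKM in controls, 16.1 and 36.0 FPKM at day 4 and 23.4 and 24.7 FPKM at day 6. Tbx3, its nearest relative, was at 5.39, 8.03 and 8.22 FPKM in controls, 4.57 and 9.45 FPKM at day 4 and 3.97 and 5.42 FPKM at day 6. In both genes day 4 knockout replicate 2 was high and replicate 1 low, so the replicates of day 4 differed by more than the group means did. The mesoderm patterning gene Tbx6 was between 0.427 and 1.36 FPKM. Tbx4, Tbx18 and Tbx21, the last known as T-bet of T cells and innate lymphoid cells, stayed at or under 0.716 FPKM, and 13 T cell and innate lymphoid markers summed to between 1.31 and 13.5 FPKM per library.

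Of the 4 factors left out of the rule, Foxl1 is a telocyte marker, and Foxf1 was the most abundant forkhead gene of the table. Foxf1, a Hedgehog target needed for gut mesenchyme, was at 119, 132 and 143 FPKM in controls, 159 and 218 FPKM at day 4 and 142 and 137 FPKM at day 6. It was above Foxn3 in all 7 libraries. Foxf2 ranged from 14.8 to 37.3 FPKM and Foxl1 from 0.690 to 2.30 FPKM. None of the 3 that were tested passed in any comparison, and the log2 change of Foxf1 at day 4 was 0.50 ± 0.19 (SE; limma, adjusted p = 0.233).

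At day 4 against wildtype, no member passed the threshold of an adjusted p of 0.05 by limma, where 1.02% of all 11735 tested genes did. The largest differences were in Sox18, which was higher, and in Klf4, a zinc finger factor of cell identity and of growth arrest, which was lower. Klf4 was at 64.7, 119 and 101 FPKM in controls, 54.1 and 38.6 FPKM at day 4 and 77.9 and 99.3 FPKM at day 6. Its day 4 knockouts lay below all 3 controls, but the day 4 set control was closer to them than to the other controls. The log2 change of FPKM + 1 was -0.99 ± 0.29 (SE; adjusted p = 0.138), and -0.49 ± 0.29 (adjusted p = 0.785) against the control of the same set. For Sox18 the change was 1.68 ± 0.47 (adjusted p = 0.131), and 0.89 ± 0.50 (adjusted p = 0.775) against the control of the same set. Without the day 4 set control both passed, Klf4 at -1.24 (adjusted p = 0.0392) and Sox18 at 2.08 (adjusted p = 0.0425), so that 1 library decided these calls.

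Klf15, a glucocorticoid target that governs amino acid and glucose metabolism, was higher at day 4 by a difference that did not pass. It was at 10.5, 9.65 and 17.8 FPKM in controls, 22.7 and 20.9 FPKM at day 4 and 14.8 and 12.4 FPKM at day 6. The day 4 knockouts were above all other libraries. Its change at day 4 was 0.79 ± 0.25 (SE; limma, adjusted p = 0.170) and 0.99 ± 0.34 (adjusted p = 0.523) against the day 4 set control, which is 1 library. Foxp2 changed by -0.67 ± 0.20 (adjusted p = 0.154), and by -0.60 ± 0.29 against its own set. For Sox8 the value was -0.60 ± 0.24 (adjusted p = 0.244) and for Sox9 it was -0.40 ± 0.17 (adjusted p = 0.264), and against the day 4 set control these became -0.25 ± 0.29 and -0.24 ± 0.23. With Sox17 at 0.48 ± 0.21 (adjusted p = 0.268), 7 of the 37 tested members had an unadjusted p under 0.05, or 18.9%, where 18.6% of all tested genes did. Higher were 3 of them, against 6.20% of all genes, and lower were 4, against 12.3% of all genes. The members' share was near the background and is no result about them. Sox17 met the filter only through the day 4 knockouts, so its difference follows from the filter and its p is no support, and filtering on the mean over libraries instead gave 6. The 7 became 2 without day 4 knockout replicate 2, 4 without either day 6 set control or either day 6 knockout, and 1 with the harvest set as a term.

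By rank alone, 9 of the 37 members had both day 4 knockouts below all controls, where 22.0% of tested genes had, and 5 had them above, where 12.5% had. The 9 were Klf4, Klf6, Foxn3, Sox9, Foxj2, Foxp2, Foxj3, Foxk2 and Sox8, and the 5 were Klf15, Foxn2, Sox18, Sox5 and Sox17, the last through the filter alone. The median log2 change of the 37 at day 4 was -0.15, with 13 positive and 24 negative, and that of all tested genes was -0.06. Against the day 4 set control the median of the 37 was 0.05, with 19 positive and 18 negative, so this tilt was not kept.

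At day 6 no member passed either, where 0.0426% of tested genes did. Foxn2, a forkhead gene of little known function, was at 3.30, 2.82 and 3.75 FPKM in controls, 4.46 and 4.35 FPKM at day 4 and 5.49 and 4.23 FPKM at day 6. All 4 knockouts lay above all controls. Its change at day 6 was 0.45 ± 0.18 (SE; limma, adjusted p = 0.677), and 0.45 ± 0.22 against the controls of the same set. It was the only 1 of the 37 with an unadjusted p under 0.05 at day 6, or 2.70%, where 7.26% of tested genes had one, 3.79% higher and 3.47% lower. With 1 library left out the count was 0 (without day 6 knockout replicate 1) to 2 (without either day 4 knockout or the second day 6 set control). Next by p were Foxp1 at 0.43 ± 0.19 (adjusted p = 0.688), Sox13 at 0.39 ± 0.18 (adjusted p = 0.710) and Klf13, a factor of lymphocyte and heart development, at 0.32 ± 0.15 (adjusted p = 0.720). Tbx3 stood at -0.52 ± 0.30 (adjusted p = 0.786) and Klf3 at 0.37 ± 0.23 (adjusted p = 0.804). Both day 6 knockouts were above all controls for 5 members, Sox13, Foxp1, Klf13, Foxn2 and Sox5, where 13.9% of tested genes were, and below for 0 members, where 11.9% were.

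**Figure D3:**
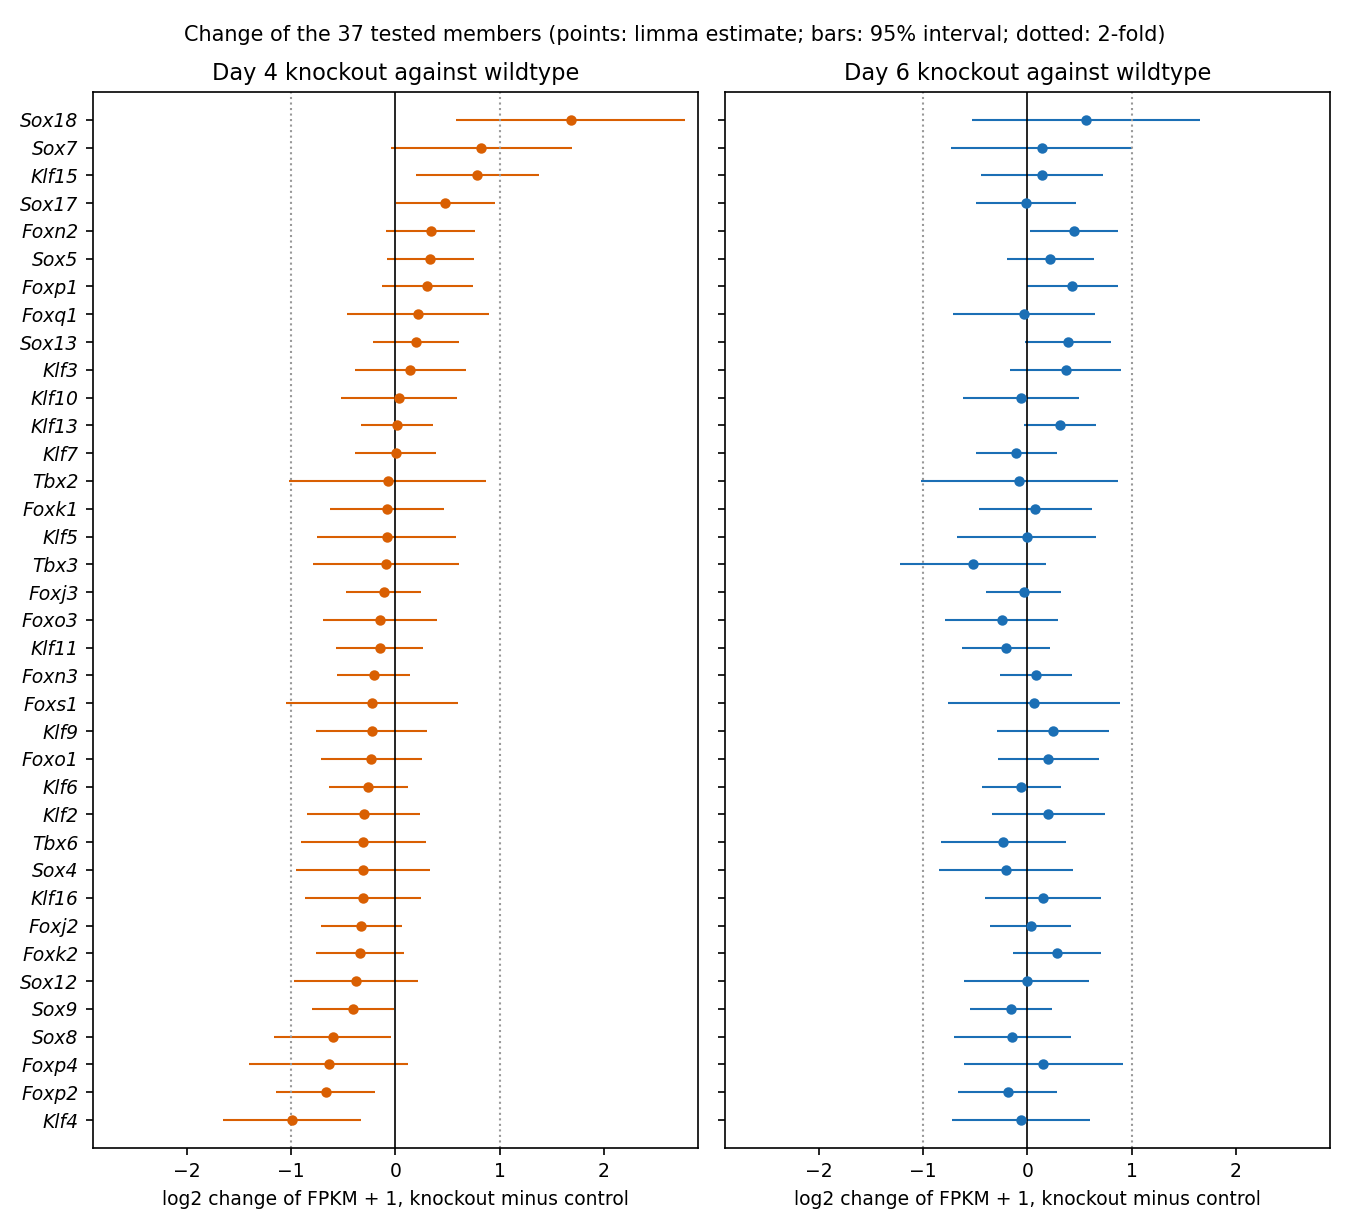
Log2 change of FPKM + 1 for the 37 tested members, day 4 knockouts (left) and day 6 knockouts (right) against the 3 wildtype controls, ordered by the day 4 value. Points are limma estimates, bars are 95% intervals and dotted lines are 2-fold changes. Sox18 at 1.68 and Klf4 at -0.99 are the outermost points at day 4, and at day 6 most points lie near 0.

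With both days averaged, 0 members passed, where 0.162% of tested genes did, and 4 had an unadjusted p under 0.05, or 10.8%, where 13.8% of tested genes had. Of the 4, 3 were higher (5.27% of tested genes) and 1 was lower (8.58% of tested genes). The 4 became 1 with the harvest set as a term or without the first day 6 set control or either day 6 knockout, and 2 without day 4 knockout replicate 2. They were Sox18 at 1.12 ± 0.40 (SE; limma, adjusted p = 0.270), Foxn2 at 0.39 ± 0.15 (adjusted p = 0.313), Foxp2 at -0.43 ± 0.17 (adjusted p = 0.321) and Foxp1 at 0.37 ± 0.16 (adjusted p = 0.357). Klf4 at -0.53 ± 0.24 (adjusted p = 0.383) and Klf15 at 0.46 ± 0.21 (adjusted p = 0.386) followed. All 4 knockouts lay above all 3 controls for Foxn2 and Sox5, 2 of the 37, where 5.32% of tested genes did. They lay below for 0 members, where 6.58% of tested genes did. The 2 comparisons with wildtype share their controls, so their values for a member are not independent.

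The intervals are on the scale of FPKM + 1 and do not bound the change of low genes. At day 4 the 95% interval of the log2 change lay within 2-fold in both directions for 28 of 37 tested members, among them Klf2, Klf9, Klf10, Klf6, Foxn3 and Foxo1. The number was 21 with a pseudocount of 0.1 and 18 without day 4 knockout replicate 1. The other 9 were Klf4, Klf15, Foxp2, Foxp4, Foxs1, Sox18, Sox8, Sox7 and Tbx2. At day 6 it lay within 2-fold for 33, the exceptions being Sox18, Sox7, Tbx2 and Tbx3, and with both days averaged for 34, the exceptions being Klf4, Sox18 and Sox7. Without day 6 knockout replicate 2, the number at day 6 was 19. Over all tested genes the shares were 71.2%, 79.6% and 83.4%, and over the 37 members 75.7%, 89.2% and 91.9%. For day 6 against day 4 the order was reversed, with 21 of the 37 members (56.8%) against 71.5% of all tested genes. For Klf2, the interval ran from -0.84 to 0.24 at day 4 and from -0.34 to 0.74 at day 6.

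Between day 6 and day 4, 0 of the 37 members passed, and 0 of all tested genes did (background 0%). At an unadjusted p under 0.05 were 3 members, or 8.11%, where 11.5% of tested genes were, 8.53% higher and 2.93% lower (limma). Klf4 was higher at day 6 by 0.93 ± 0.31 (SE; adjusted p = 0.342) and Foxk2, a repressor of autophagy genes, by 0.62 ± 0.20 (adjusted p = 0.333), while Klf15 changed by -0.65 ± 0.28 (adjusted p = 0.436). Day and harvest set coincide among the knockouts. With each day set against the controls of its own set, the difference between days was 0.18 ± 0.37 for Klf4, 0.60 ± 0.34 for Foxk2 and -0.94 ± 0.44 for Klf15. The 3 members became 1 without day 6 knockout replicate 2 or with the harvest set as a term, and 5 without the first day 6 set control. Over the settings other than leaving out 1 library, their number ran from 1 to 7. Both day 6 knockouts lay above both day 4 knockouts for 14 members, where 27.2% of tested genes did, and below for 4, where 15.3% did. The 4 were Klf7, Klf15, Sox18 and Sox17, the last again through the filter alone.

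The harvest sets, which hold both genotypes, separated some members. For 7 of the 37 (18.9%) all 3 day 4 set libraries, control included, lay below all 4 day 6 set libraries, where 9.65% of tested genes did: Klf9, Klf4, Foxj2, Foxp4, Klf16, Sox8 and Foxk1. Foxk1 met the filter only through 2 day 6 set libraries, so its place here supports nothing. For 0 members they lay above, where 3.78% did. Column sums were also lower in the day 4 set, at 352445 to 377325 FPKM, than in the day 6 set, at 396360 to 429805 FPKM. After scaling by a trimmed mean of log ratios the number of members lying below was 5, without Klf9 and Foxk1, with no background share given. Without the day 4 set control it was 12, and without day 4 knockout replicate 2 it was 11. This grouping fixes the order of the controls as well. Klf4 was at 64.7 FPKM in the day 4 set control against 101 FPKM in the nearest day 6 set control. Its day 4 knockouts were at 54.1 and 38.6 FPKM. Whether the set, the harvest day or the animals account for this was not tested. With 1 control in the day 4 set, its own spread is not known.

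**Figure D4:**
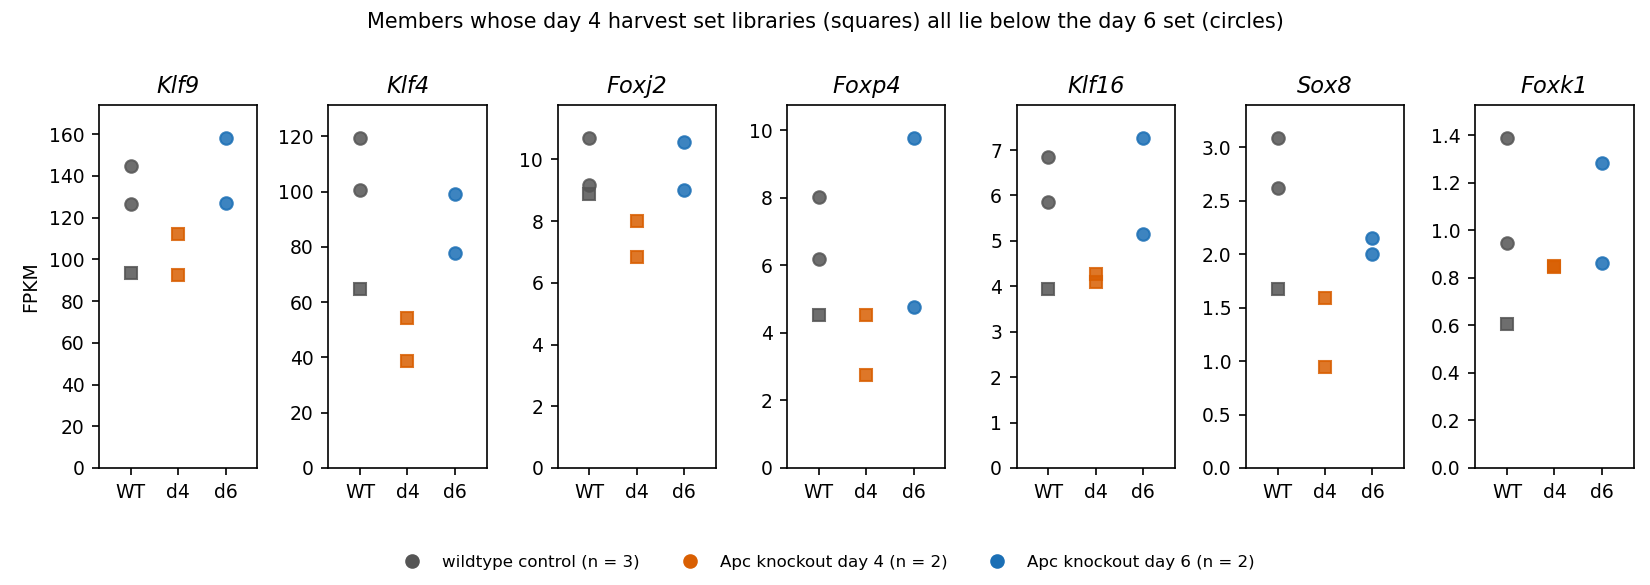
FPKM on linear axes from 0 for the 7 members whose day 4 harvest set libraries (squares) all lie below the day 6 set libraries (circles), with controls (WT), day 4 (d4) and day 6 (d6) knockouts side by side in each panel. This choice fixes that in each panel the square of the control lies below both circles of the controls, as for Klf4 at 64.7 FPKM against 119 and 101 FPKM.

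Few genes of the other lists passed the threshold. Of 13 listed T-box and Sp relatives that the name pattern misses, 12 had values, and Tbxt was not found under that symbol. Of the 12, 5 were tested (Mga, Sp1, Sp2, Sp3 and Sp4) and 0 passed, with 0 at an unadjusted p under 0.05 in any comparison by limma. Sp3, a zinc finger factor of GC boxes, was the highest of them at 25.9 to 34.0 FPKM. By limma, 0 passed of 6 tested Tcf, Lef and beta-catenin partner genes, 13 Hedgehog pathway genes, 15 circadian clock genes and 8 proliferation genes. At day 4 an unadjusted p under 0.05 was reached by 2, 4, 3 and 0 of them, where 18.6% of all tested genes reached it. The clock genes Nr1d1, Nr1d2, Dbp and Tef had all day 4 set libraries below all day 6 set libraries. Of all tested genes 9.65% did. The other clock genes overlapped between the sets. In controls Nr1d1 was at 7.03, 67.1 and 72.2 FPKM and Nr1d2 at 5.71, 30.0 and 25.5 FPKM. The part of the clock in the set differences was not tested. Over 18 fixed lists, 2 genes passed in any comparison, both lower at day 4 and both among the 12 trophocyte and sort markers: Cd34 at -1.33 ± 0.21 (SE; limma, adjusted p = 0.0413) and Wnt2b, a WNT ligand, at -1.31 ± 0.23 (adjusted p = 0.0489). The 15 epithelial markers summed to between 7.96 and 15.7 FPKM in 6 libraries and to 37.6 FPKM in day 6 knockout replicate 1, in which Klf5, a Klf gene of crypt epithelium, was at 4.10 FPKM within its range of 2.79 to 6.30 FPKM.

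The 52 members under 1 FPKM in all libraries can be put in 3 layers by their highest value. In the upper layer, 19 reached at least 0.1 FPKM in some library, led by Foxm1, the driver of mitotic genes (0.272 to 0.890 FPKM). It also holds the endothelial and mesodermal Foxc1 (at most 0.613 FPKM) and Foxc2 (at most 0.495 FPKM), Klf12, Foxd1, Foxd2, Foxo4, Foxo6, Foxj1 and Klf8, and the epithelial Foxa1 (at most 0.111 FPKM) and Foxa3 (at most 0.236 FPKM). In the lower layer, 18 were above 0 but under 0.1 FPKM, among them the pluripotency factor Sox2, Sox1, Foxd3, Foxa2, Tbx1, Tbx15 and Tbx19. The last 15 are listed at 0 in every library: Foxb1, Foxb2, Foxe3, Foxh1, Foxi1, Foxi2, Foxi3, Foxn1, Foxn4, Klf17, Sox3, Sox14, Tbx5, Tbx10 and Tbx20. Without read counts, a value of 0 cannot be given a detection limit.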

How the data were processed

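The deposited table holds FPKM computed by the authors for each library. The submitters' processing notes name kallisto 0.46.1, DESeq2 1.40.1 and mm9, with no role, and the step that made the FPKM is not given in the sources used here. Without counts the depth is unknown, and no counting interval is given. Column sums were 352445 to 429805 FPKM, and 10914 to 11342 symbols per library reached 1 FPKM. Of 25493 entries, 293 symbols were repeated. The repeat of highest mean was used, leaving 24908 symbols, and no member was repeated. Control columns cannot be tied to numbered titles. Whether each library is a different animal is not stated, and p-values then reflect variation among these libraries, which may be technical.

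Genes reaching 1 FPKM in 2 or more libraries (11735) were tested as log2(FPKM + 1), which understates changes of low genes. A linear model with a mean for each group was fitted with limma 3.58.1 (R 4.3.3) over the 7 libraries, leaving 4 residual degrees of freedom, with a prior of 3.78 that followed mean level. Tests were two-sided, with Benjamini-Hochberg adjustment over all tested genes and a threshold of 0.05. The procedure was tested on simulated data.

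The members and lists were chosen with earlier results of these data known. Named members are those past the threshold, the 6 highest per family, the 6 with the smallest p in each comparison with wildtype, and those with all knockouts beyond all controls. Further members were named after their values were seen. Of the 37 tested members, 11 share an exon with another gene in the GENCODE annotation, 10 of them on the opposite strand (Klf3, Klf7, Foxo1, Foxq1, Foxj2, Sox4, Sox5, Sox8, Sox17 and Tbx3). Foxp1 and Foxj2 share one on the same strand. Whether counting used the strand is not given in the sources used here, so such reads cannot be told apart.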

Additional observations from a re-analysis of the deposited data

How the results depend on the processing

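In 18 alternatives, 7 of them leaving out 1 library each, 18 log2 changes of named members were recomputed 300 times. These were the 6 with the smallest p in each comparison with wildtype, so a kept sign is no support for them. Of the 300, 0 changed sign and 298 stayed short of the threshold, as in the main fit. The other 2 passed it, Klf4 and Sox18 without the day 4 set control. In the 11 others, 0 members passed in any comparison. Leaving out 1 library, 0 to 2 members passed at day 4 and 0 in the other comparisons. All genes passing ranged from 2 (without the second day 6 set control) to 472 (without the day 4 set control) at day 4, from 0 (without either day 6 knockout or the first day 6 set control) to 6 at day 6, from 5 (without the second day 6 set control) to 77 (without the day 4 set control) with both days averaged and from 0 to 83 (without the day 4 set control) for day 6 against day 4. Members with all knockouts above all controls ranged from 2 to 5 and those below from 0 to 6, both highest without the day 4 set control. Members above were 4 without either day 6 set control or without day 4 knockout replicate 2, and Foxn2 and Sox5 were among them each time. At day 4 all genes passing were 9 without day 4 knockout replicate 2, 68 and 70 without the day 6 knockouts, and 6 if the first day 6 set control was left out. At day 4, 120 genes became 0 with no filter, 5 with the harvest set as a term, 71 with a constant prior and 70 with only the groups compared. At day 6, 5 genes became 2 with a pseudocount of 0.1, 3 with no filter, 0 with quantile normalization, 3 with trimmed mean scaling, 2 with the harvest set and 10 with a constant prior. With both days averaged, 19 became 0 with no filter and 43 with quantile normalization. Day 6 against day 4 went from 0 to 3 with the harvest set and 60 with only the knockouts. With the replicate block, on knockouts only, it was 22 genes and 0 members. Same-numbered knockouts did not deviate together (r = -0.03 over 11735 genes), so the numbers give no pairing. Against wildtype no paired analysis was possible because control columns carry no replicate number of the titles. The cause of these shifts was not tested. Scaling moved the median of all genes by at most 0.07 on the log2 scale. Group sizes of 2 and 3 and the 1 control of the day 4 set limit every comparison.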
